A study of Mus musculus with 4 samples.

Results

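Newly made RNA of 9 genes of antigen presentation and of B cells was examined in double positive (DP) thymocytes of Tox4 WT and Tox4 cKO mice. The genes were chosen by symbol from a table of 24984 genes, as genes that report other cells among purified thymocytes: H2-Aa, H2-Ab1, H2-Eb1, Cd74, H2-DMa and Ciita of the MHC class II pathway, and Cd79a, Cd79b and Ms4a1 of B cells. All 9 had a row in the table. No measured value entered the rule, although the members were chosen with earlier results of these data known. The assay was TTchem-seq, in which cells take up 4-thiouridine for a short time and the labelled RNA is fragmented, enriched and sequenced, so that introns are read as well and the signal is meant to follow transcriptional output. The study's methods describe streptavidin purification and rRNA depletion, whereas the sample labels describe capture of polyadenylated RNA, and if the labels hold, the values would lean towards mature RNA. Cells were kept for 0.5 hr in fresh medium before labelling. There were 2 WT libraries of genotype Tox4;F/F, which carry the floxed Tox4 alleles without Cre, and 2 cKO libraries of genotype Tox4;F/F;Lck+, in which a Cre transgene under the proximal promoter of Lck deletes Tox4 in developing T cells. That promoter is active in T lineage cells, and it is not known for activity in the cell types that mainly carry the genes described here. How the DP cells of these libraries were purified was not given in the sources used here.

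MHC class II molecules present peptides from ingested proteins to CD4+ T cells and are made mainly by B cells, dendritic cells, macrophages and thymic epithelial cells. An alpha and a beta chain pair in the endoplasmic reticulum with the invariant chain, which guides them to endosomes, where it is degraded and H2-DM exchanges the remaining fragment for peptide. Their genes share a promoter module, with the X and Y boxes, that is activated through the coactivator Ciita, and mouse T cells, DP cells included, usually do not use it.

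The libraries held 38429786 to 48690591 fragments. Tox4 was at 74.0 and 70.3 CPM (fragments per 1000000 of the library) in WT and at 59.3 and 57.2 CPM in cKO. Its log2 fold change was -0.31, with an SE of 0.10 and an adjusted p from DESeq2 of 0.0453. The deposited count covers the whole gene, whereas Cre removes only its floxed exons, so this count does not measure the deletion itself. The call of Tox4 was lost in edgeR (adjusted p = 0.126), in limma voom (adjusted p = 0.136) and with total count factors in DESeq2 (adjusted p = 0.0511) or its independent filtering off (adjusted p = 0.0821), and when any library was left out. The cKO library labelled replicate 1 had the fewest genes with a fragment, 15693, against 17196 to 18539 in the other 3. WT replicate 1 had 172 CPM of Xist, and the other libraries had no more than 2.36 CPM. The 10 genes listed as marks of DP cells, Rag1 and Cd4 first among them, summed to 3227 and 3903 CPM in WT and 3311 and 3080 CPM in cKO, and DESeq2 called Cd8a and Rag1 lower. Neither was called by edgeR or limma voom, and Rag1 was also lost under most other DESeq2 settings, among them TMM factors (adjusted p = 0.0580 in DESeq2) and total count factors (adjusted p = 0.0522 in DESeq2).

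The classical class II chains and the invariant chain were detected at low levels in every library and were lower in both cKO libraries than in both WT libraries. To show the shared promoter module, stretches upstream of the starts of H2-Aa, at chr17:34287843-34287924 on the minus strand, and of H2-Eb1, at chr17:34305756-34305836 on the plus strand, are given 5′ to 3′ from the RefSeq annotation of GRCm38.p6, with the letters GCAACT and ATTGG in capitals.
H2-Aa upstream: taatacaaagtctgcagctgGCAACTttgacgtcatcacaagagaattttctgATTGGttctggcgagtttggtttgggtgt
H2-Eb1 upstream: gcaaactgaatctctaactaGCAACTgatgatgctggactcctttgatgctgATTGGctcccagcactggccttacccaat
ATTGG, the core of the Y box, begins 48 bases before the start of H2-Aa and 59 bases before that of H2-Eb1. The spacing from the first letter of GCAACT to the first of ATTGG is 33 bases in H2-Aa and 32 bases in H2-Eb1. Of 32851 promoters of 300 bases in the same table, 37.4% hold ATTGG on either strand, 10.9% hold GCAACT and 0.198% hold both on 1 strand with a spacing of 25 to 40 bases. GCAACT and this spacing were chosen after the 2 sequences had been read. The X1 core CCTNGNNAC, found in 15.8% of all promoters on either strand, was not found in the 5 promoter entries of members, which belong to H2-Aa, H2-Eb1, H2-DMa and Cd79a.

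H2-Aa, which encodes the alpha chain of the I-A molecule, lies on the minus strand at chr17:34282744-34287823. It had 185 and 312 fragments in WT and 92 and 171 in cKO, which is 4.34 and 6.41 CPM against 2.39 and 4.30 CPM. WT replicate 1 and cKO replicate 2 were nearly level, while cKO replicate 1 stood below the other 3 libraries. The means were 5.37 ± 1.46 and 3.35 ± 1.35 CPM (SD, n = 2 each). The log2 fold change of -0.69 (SE 0.36) did not pass the test (DESeq2 adjusted p = 0.379). It was -0.32 without cKO replicate 1, -0.37 without WT replicate 2 and -1.18 without cKO replicate 2.

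H2-Ab1, the beta chain of I-A, lies at chr17:34263227-34269418 on the plus strand. Its 188 and 308 fragments in WT gave 4.41 and 6.33 CPM, and its 109 and 143 fragments in cKO gave 2.84 and 3.60 CPM. The libraries fell in the same order as for H2-Aa, with WT replicate 2 highest and cKO replicate 1 lowest. The log2 fold change was -0.74 (SE 0.33, DESeq2 adjusted p = 0.237) and was not past the threshold. It was -0.45 without WT replicate 2.

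H2-Eb1, the beta chain of the I-E molecule, lies at chr17:34305867-34316674 on the plus strand and had 199 and 260 fragments in WT and 103 and 164 in cKO. That is 4.67 and 5.34 CPM in WT and 2.68 and 4.12 CPM in cKO, again with no overlap between genotypes and with cKO replicate 1 lowest. The log2 fold change of -0.56 (SE 0.33) did not pass the test (DESeq2 adjusted p = 0.480). Leaving out cKO replicate 1 gave -0.27, and leaving out cKO replicate 2 gave -0.91.

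Cd74, the invariant chain, lies at chr18:60803849-60812652 on the plus strand and holds the microRNA gene Mir5107 within its span. It was at 12.9 and 17.5 CPM in WT, from 550 and 851 fragments, and at 7.55 and 10.6 CPM in cKO, from 290 and 422.5 fragments. All 4 exact Poisson 95% intervals were apart, and the order of the libraries was that of the 3 chains. Cd74 fell, from 15.2 ± 3.23 to 9.09 ± 2.18 CPM (SD, n = 2 each), and its log2 fold change was -0.75 (SE 0.23, adjusted p = 0.0331 in DESeq2). It was the only one of the 9 genes called lower, against 1.57% of the 11625 genes tested. The call was lost when any library was left out, where the log2 fold change ranged from -1.02 to -0.50, in edgeR (adjusted p = 0.216) and limma voom (adjusted p = 0.214), and with the independent filtering of DESeq2 off (adjusted p = 0.0600).

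**Figure D1:**
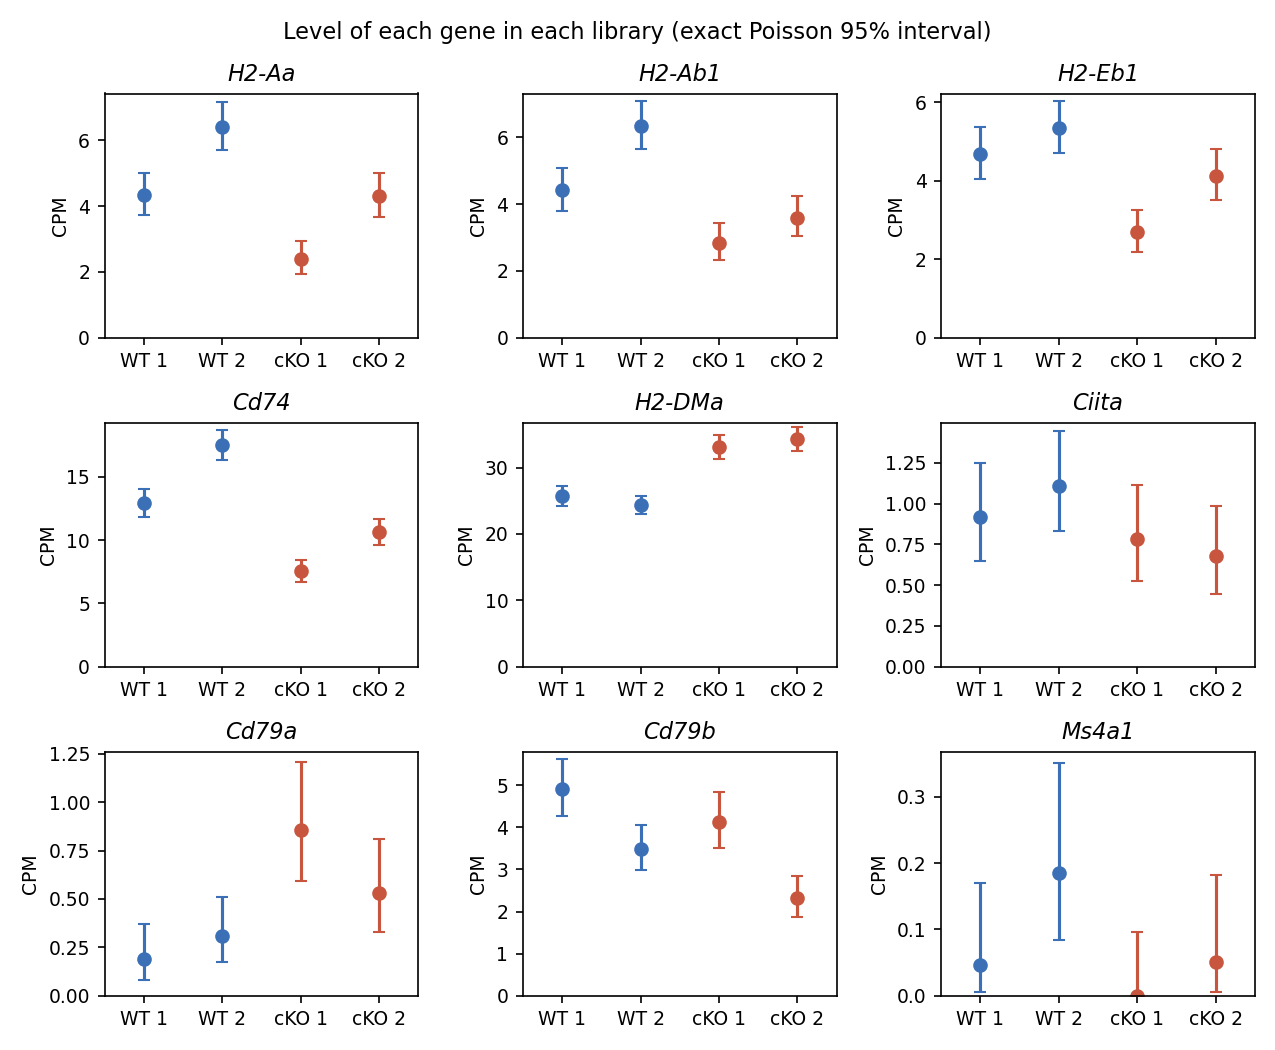
Level of each of the 9 genes, in CPM on axes that start at 0, in the 2 WT (blue) and 2 cKO (red) libraries, with exact Poisson 95% intervals that cover counting error only. H2-Aa, H2-Ab1, H2-Eb1 and Cd74 share an order of libraries, from WT replicate 2 down to cKO replicate 1, whereas H2-DMa is higher in both cKO libraries.

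The proportions of these 4 genes were similar in all libraries. Summed, they were at 26.3 and 35.6 CPM in WT and 15.5 and 22.6 CPM in cKO. The WT mean was 1.62 times the cKO mean, WT replicate 2 was 1.35 times WT replicate 1, and cKO replicate 2 was 1.47 times cKO replicate 1. The log2 ratio of cKO over WT was -0.70, and -0.45 without cKO replicate 1. The closest libraries of opposite genotype, WT replicate 1 and cKO replicate 2, differed by 1.16 times. Of the fragments of the 4 genes, Cd74 took 49.02% and 49.2% in WT and 48.8% and 46.9% in cKO, with Wilson 95% intervals that overlapped among all libraries. H2-Aa took between 15.5% and 19.0%, H2-Ab1 between 15.9% and 18.4% and H2-Eb1 between 15.0% and 18.2%, and for each gene the intervals of the 4 libraries overlapped as well. The grouping of these 4 was made after their values had been seen, and their sum has no test. In bulk samples, fewer cells of a type and less RNA made by each cell cannot be told apart.

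H2-DMa, the alpha chain of the peptide exchange factor, ran opposite to the classical chains. It was at 25.6 and 24.3 CPM in WT, from 1093 and 1184 fragments, and at 33.0 and 34.3 CPM in cKO, from 1269 and 1362 fragments. The genotypes did not overlap, and each pair of replicates lay close together. H2-DMa rose from 24.98 ± 0.937 to 33.6 ± 0.873 CPM (SD, n = 2 each), and its log2 fold change was 0.43 (SE 0.13, adjusted p = 0.0296 in DESeq2). It was the only member called higher, against 2.14% of all genes tested. Leaving out any library ended the call although the log2 fold change stayed between 0.40 and 0.46, and the gene was not called by edgeR (adjusted p = 0.134) or limma voom (adjusted p = 0.126), or with the independent filtering of DESeq2 off (adjusted p = 0.0539).

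The partner chains of H2-DMa did not share its level. Per kb of gene, H2-DMa averaged 1.80 CPM, the beta chain genes H2-DMb1 and H2-DMb2 0.0855 and 0.114 CPM, and H2-Aa, H2-Ab1 and H2-Eb1 0.858, 0.693 and 0.389 CPM. The density of H2-DMa over that of H2-DMb1 was 17.5 and 18.3 in WT and 30.5 and 20.3 in cKO. H2-DMb1 was at 0.633 and 0.575 CPM in WT and 0.468 and 0.729 CPM in cKO, and H2-DMb2 was at 0.915 and 1.54 CPM in WT and 0.494 and 0.830 CPM in cKO. Both lay under a mean of 1 CPM, and DESeq2 gave neither an adjusted p.

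The long H2-DMa interval, chr17:34122832-34139101 on the plus strand, starts 225 bp from the start of Brd2, a bromodomain gene transcribed the other way, and the second annotated start is 2686 bp further in. To show this head-to-head arrangement, the RefSeq promoter entry of the long interval, chr17:34122582-34122881 on the plus strand of GRCm38.p6, is given with the 26 bases that belong to Brd2 on the other strand in capitals.
H2-DMa promoter: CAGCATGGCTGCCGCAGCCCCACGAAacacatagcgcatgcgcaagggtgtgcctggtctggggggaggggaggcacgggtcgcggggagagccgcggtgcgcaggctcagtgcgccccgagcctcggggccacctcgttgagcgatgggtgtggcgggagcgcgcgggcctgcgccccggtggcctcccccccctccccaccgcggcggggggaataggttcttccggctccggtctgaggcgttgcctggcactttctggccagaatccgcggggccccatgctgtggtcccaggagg
This entry holds neither GCAACT nor ATTGG, and the entry of the second start holds ATTGG alone. Brd2 was at 268 and 292 CPM in WT and 299 and 275 CPM in cKO, and its log2 fold change was 0.03 (SE 0.08, adjusted p = 0.934 in DESeq2). The density of H2-DMa over that of Brd2 was 0.0622 and 0.0542 in WT and 0.0719 and 0.0812 in cKO. Whether fragments near the long start belong to the H2-DMa transcript cannot be read from a count of the whole gene.

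**Figure D2:**
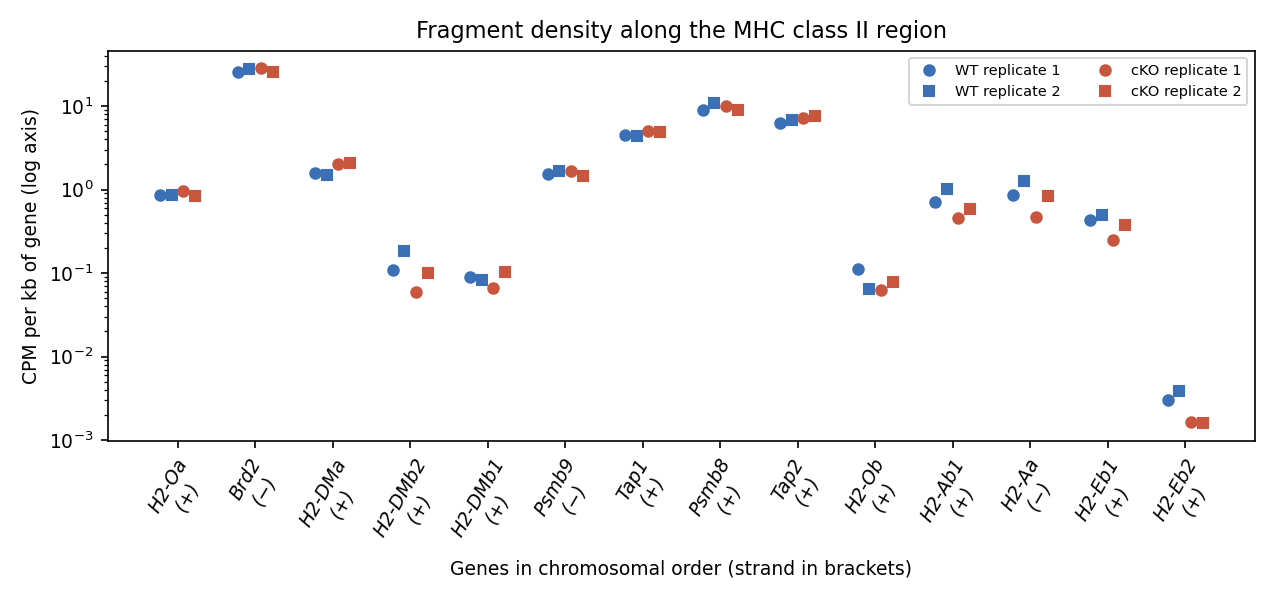
CPM per kb of gene, on a log axis, for genes of the MHC class II region in chromosomal order, with WT libraries in blue and cKO libraries in red, replicate 1 as circles and replicate 2 as squares. H2-DMa averages 1.80 CPM per kb between Brd2 at 26.8 and H2-DMb2 at 0.114, and H2-Ab1, H2-Aa and H2-Eb1 show WT replicate 2 highest and cKO replicate 1 lowest.

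Ciita, the coactivator of the class II promoters, lies at chr16:10480072-10527640 on the plus strand, with 3 annotated starts. It had 39 and 54 fragments in WT and 30 and 27 in cKO, or 0.915 and 1.11 CPM against 0.781 and 0.679 CPM. Both cKO libraries were below both WT libraries, but the Poisson intervals of all 4 overlapped. Pooled over libraries, cKO over WT was 0.716, with a 95% interval for counting error of 0.505 to 1.01. The log2 fold change was -0.48 (SE 0.66), and DESeq2 gave no adjusted p at this level.

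None of the 3 B cell genes passed the test, and only Cd79a had genotypes that did not overlap. Cd79a, one of the paired signalling chains of the B cell receptor, lies at chr7:24897497-24901858 on the plus strand and had 8 and 15 fragments in WT and 33 and 21 in cKO. That is 0.188 and 0.308 CPM in WT and 0.859 and 0.528 CPM in cKO, with both cKO libraries above both WT libraries. Pooled, cKO over WT was 2.74, with a 95% interval for counting error of 1.65 to 4.68, which leaves out the spread between libraries. In DESeq2, which models that spread with the help of all genes, the log2 fold change was 1.47 (SE 0.92), with no adjusted p.

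Cd79b, the other signalling chain, lies at chr11:106311341-106314562 on the minus strand. It had 209 and 170 fragments in WT and 159 and 92 in cKO, which is 4.90 and 3.49 CPM against 4.14 and 2.31 CPM. The genotypes overlapped, with means of 4.20 ± 0.998 and 3.23 ± 1.29 CPM (SD, n = 2 each) that were closer together than the replicates of either genotype. The log2 fold change was -0.38 (SE 0.37, DESeq2 adjusted p = 0.752). It was -0.85 without cKO replicate 1, -0.60 without WT replicate 2, -0.13 without WT replicate 1 and -0.03 without cKO replicate 2. Per kb, Cd79b exceeded Cd79a by 35.4 and 15.3 times in WT and by 6.52 and 5.93 times in cKO. Cd79a and Cd79b thus did not hold a fixed ratio across libraries.

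Ms4a1, which encodes the B cell surface protein CD20, was close to absent. It lies at chr19:11249679-11266149 on the minus strand, and 4930526L06Rik overlaps it on the other strand. It had 2 and 9 fragments in WT and 0 and 2 in cKO. The highest library, WT replicate 2, was at 0.185 CPM, and 0 fragments in cKO replicate 1 allow up to 0.0781 CPM (3 counts). The pooled ratio of cKO over WT was 0.212, with a 95% interval for counting error of 0.0229 to 0.973, which leaves out the spread between libraries. In DESeq2, which models that spread with the help of all genes, the log2 fold change was -2.20 (SE 2.49), with no adjusted p. It was -0.89 without WT replicate 2 and -1.21 without cKO replicate 1. Without cKO replicate 2, the only cKO library left is at 0, and the fitted value of -4.61 depends on the model rather than on fragments.

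Of the 9 genes, 6 reached a mean of 1 CPM, which a call requires beside an adjusted p, and all 6 had an adjusted p. Among these 6, both cKO libraries were below both WT libraries for 4, against 24% of all genes tested, and above them for 1, against 24.9%. With the 3 sparser genes included, 5 were lower, 2 were higher and 2 overlapped. The median log2 fold change of the 6 was -0.62, and that of all 11625 tested genes was 0.00. The 9 genes did not share 1 direction: both cKO libraries were higher for H2-DMa and Cd79a, and the genotypes overlapped for Cd79b and Ms4a1.

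**Figure D3:**
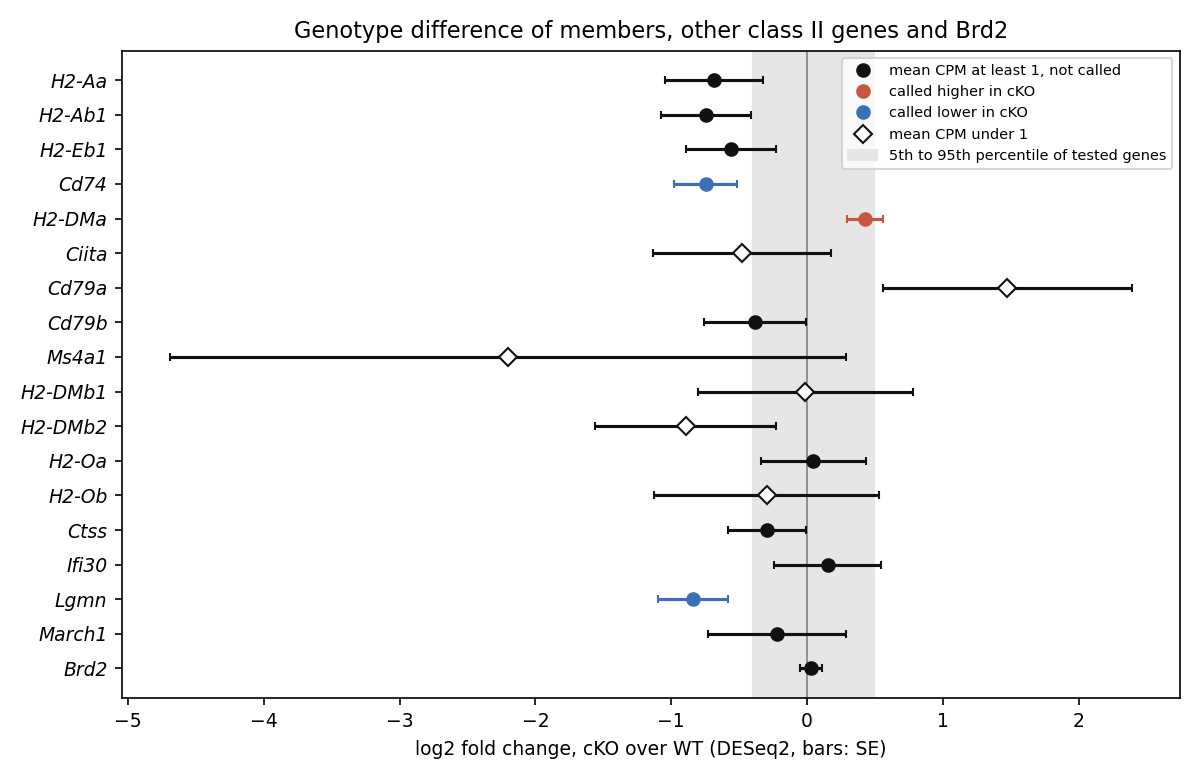
Log2 fold change of cKO over WT with its SE (DESeq2) for the 9 genes, 8 other class II genes (H2-Eb2, under 10 fragments, is not drawn) and Brd2; filled points have a mean of at least 1 CPM, open diamonds lie under it, and the grey band holds the central share of tested genes named in the legend. Cd74 at -0.75 and Lgmn at -0.84 are called lower and H2-DMa at 0.43 is called higher, and Ms4a1, with 11 fragments in WT and 2 in cKO, has the widest bar of those drawn.

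The rest of the class II pathway was mixed. Of 9 further genes, 5 reached a mean of 1 CPM, of which March1 had no adjusted p from DESeq2. DESeq2 called 1 of the 9, in the lower direction, against 1.57% of all genes tested. That gene was Lgmn, the endosomal protease legumain, at 10.8 and 7.85 CPM in WT and 5.49 and 4.95 CPM in cKO, and its log2 fold change was -0.84 (SE 0.26, adjusted p = 0.0303 in DESeq2). Ctss, the protease that trims the invariant chain, was at 5.54 and 5.11 CPM in WT and 3.98 and 4.70 CPM in cKO (log2 fold change -0.30, SE 0.29, DESeq2 adjusted p = 0.752). H2-Oa, a chain of the modulator of H2-DM, was level at 2.49 and 2.49 CPM in WT and 2.78 and 2.36 CPM in cKO. The 7 genes of factors that bind the X and Y boxes, led by Nfyc and Creb1, were summed at 588 and 601 CPM in WT and 616 and 607 CPM in cKO, and DESeq2 called 0 of them, with 0 at an unadjusted p under 0.05. Of 5 neighbours in the class II region, led by Brd2 and Tap2, DESeq2 called 0, with 0 at an unadjusted p under 0.05. Neither edgeR nor limma voom called any gene of these 3 lists, Lgmn included, and Lgmn was also lost with the independent filtering of DESeq2 off (adjusted p = 0.0552) and when any library was left out.

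Other B cell genes were low and mixed in direction. Of 18 further genes, 15 had at least 10 fragments over the 4 libraries and 6 reached a mean of 1 CPM. Of the 6, Pax5, Bank1, Spib and Pou2af1 had no adjusted p from DESeq2. Of the 18, 0 were called by DESeq2, edgeR or limma voom, with 2 at an unadjusted DESeq2 p under 0.05. Those 2 were Blnk and Fcer2a, which encodes the IgE receptor CD23 and had 3 and 16 fragments in WT and 0 and 0 in cKO. Of the 15, 4 were lower and 3 higher in both cKO libraries, and cKO replicate 1 and WT replicate 2 were the lowest library for 6 each. Over all genes tested, which had a mean of at least 1 CPM unlike most of these 15, the shares were 24% and 24.9%. The sum of the 18 genes was 23.5 and 20.7 CPM in WT and 25.5 and 25.6 CPM in cKO. It was mostly the adaptor Blnk and the transcription factor Ebf1, Blnk with 9.31 and 5.46 CPM in WT and 11.7 and 11.1 CPM in cKO, and Ebf1 with 7.11 to 8.21 CPM in all. Vpreb2 and Vpreb3, genes of early B cells, were at 0 in all libraries. The part of B cells in the levels of the class II genes was not tested.

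Marker genes of macrophages and dendritic cells, which also carry class II molecules, were low in all libraries, and none was called in either direction. Of 15 macrophage and monocyte genes, 14 had at least 10 fragments, and of these 7 were lower in both cKO libraries and 1 was higher. Over all genes tested, which had a mean of at least 1 CPM unlike most of these 14, the shares were 24% and 24.9%. The sum of the 15 was 26.7 and 23.0 CPM in WT and 20.3 and 21.9 CPM in cKO. Cd68 was the most abundant, at 7.67 and 5.50 CPM in WT and 9.21 and 7.52 CPM in cKO. For the 5 that reached a mean of 1 CPM, the log2 fold changes had a median of 0.17, which leaves out the sparser genes of the list. For 11 of the 14, cKO replicate 1 was the lowest library, as it was for H2-Aa, H2-Ab1, H2-Eb1 and Cd74. The gene higher in both cKO libraries was the integrin gene Itgam, at 1.06 and 1.07 CPM in WT and 1.51 and 1.53 CPM in cKO. Among those lower, the lysozyme gene Lyz2 was at 1.34 and 1.21 CPM in WT and 0.312 and 0.679 CPM in cKO, and Spi1, which encodes the myeloid factor PU.1, was at 1.10 and 1.05 CPM in WT and 0.260 and 0.402 CPM in cKO. Of the 15, DESeq2, edgeR and limma voom each called 0, with 2 at an unadjusted DESeq2 p under 0.05, which were Lyz2 and Spi1, both under a mean of 1 CPM.

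Of 10 dendritic cell genes, 9 had at least 10 fragments, 3 of them lower and 2 higher in both cKO libraries. Over all genes tested, which had a mean of at least 1 CPM unlike most of these 9, the shares were 24% and 24.9%. DESeq2, edgeR and limma voom each called 0 of the 10, with 1, Siglech, at an unadjusted p under 0.05. Their sum was 5.51 and 5.18 CPM in WT and 4.89 and 4.60 CPM in cKO, with the chemokine gene Ccl17 at 0. The most abundant were the transcription factor Zbtb46, at 1.01 and 1.602 CPM in WT and 2.08 and 1.66 CPM in cKO, and the receptor Flt3, at 1.24 and 0.986 CPM in WT and 1.77 and 1.11 CPM in cKO. For the 3 that reached a mean of 1 CPM, Zbtb46, Flt3 and Siglech, the log2 fold changes were 0.51, 0.37 and -1.64. Their median of 0.37 leaves out the sparser genes of the list. Siglech, a surface marker of plasmacytoid dendritic cells, was at 2.37 and 1.21 CPM in WT and 0.416 and 0.729 CPM in cKO (log2 fold change -1.64, SE 0.63, no adjusted p from DESeq2). Siglech, Itgam, Spi1, Lyz2, Fcer2a and H2-Oa were named after their values had been seen. The part of macrophages and dendritic cells in the levels of the class II genes was not tested.

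**Figure D4:**
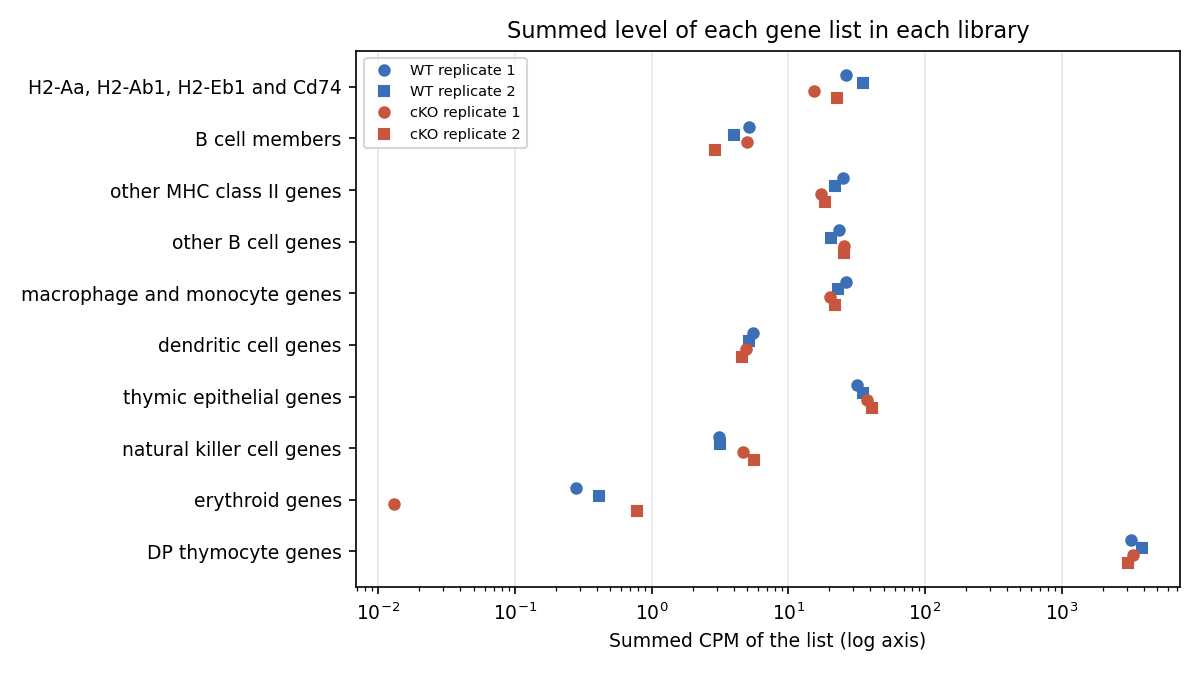
Summed CPM, on a log axis, of the 4 classical class II genes, the B cell members and lists of marker genes in each library, with WT in blue, cKO in red, replicate 1 as circles and replicate 2 as squares. The 4 class II genes run from 35.6 CPM in WT replicate 2 to 15.5 in cKO replicate 1, whereas other B cell genes are at 20.7 to 25.6 CPM and DP genes are at 3080 CPM or more.

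Thymic epithelial cells are the other main carriers of class II molecules in the thymus. Of 9 epithelial genes, 4 had at least 10 fragments, and the sum of 32.1 to 41.3 CPM was nearly all Ccl25, at 30.9 to 40.4 CPM. The defining proteasome subunit gene Psmb11 was at 0 in all libraries, and the master regulator Foxn1 had 1 fragment, in cKO replicate 1. Epcam, second to Ccl25, was at 0.629 to 1.11 CPM. The 5 natural killer cell genes, led by Gzma and Prf1, summed to 3.10 and 3.16 CPM in WT and 4.71 and 5.66 CPM in cKO. The 8 erythroid genes, Hba-a1 and Hba-a2 first, summed to no more than 0.780 CPM. No gene of these 3 lists was called by DESeq2, edgeR or limma voom, and 1, Gzma, had an unadjusted DESeq2 p under 0.05. Of 6 genes of mature T cells, which can remain after purification, those called by DESeq2 included Ccr7, which was lower, and Il7r, which was higher, and edgeR and limma voom called 0 of the 6. The part of these cell types in the levels of the class II genes was not tested.

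Per kb of gene, the 9 genes ranged widely. H2-DMa lay above 78.6% of all genes of the table in mean CPM per kb, followed by Cd74 at 74.5%, Cd79b at 72.1%, H2-Aa at 68.4%, H2-Ab1 at 66.3%, H2-Eb1 at 61.4%, Cd79a at 53.9%, Ciita at 46.0% and Ms4a1 at 38.9%. This order pools both genotypes. By the WT means, Cd74 at 1.73 CPM per kb exceeded H2-DMa at 1.54, but in WT replicate 1 H2-DMa at 1.58 exceeded Cd74 at 1.47. By the cKO means, H2-DMa at 2.07 exceeded Cd74 at 1.03. The libraries of neighbours in the pooled order overlapped in CPM per kb from H2-DMa down to H2-Eb1. Those of H2-Eb1, Cd79a, Ciita and Ms4a1 did not overlap with the next in line.

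Summed over the 6 class II genes, the level was 52.9 and 61.0 CPM in WT and 49.3 and 57.6 CPM in cKO, a log2 ratio of -0.09. H2-DMa alone gave 25.6 and 24.3 CPM of it in WT and 33.0 and 34.3 CPM in cKO. Without H2-DMa, the most abundant gene, the log2 ratio was -0.69. The genes whose pattern over the 4 libraries came closest to the sum of all 6 were Polr2c, Rbmx2, Eif1ad, Timm29 and Gzf1, with root mean square differences of 0.00493 to 0.0192 in centred log2(CPM + 0.5). As many as 1352 of 11619 genes lay within 0.1 of it. For the sum of the 3 B cell genes, at 5.14 and 3.98 CPM in WT and 4.996 and 2.89 CPM in cKO, they were Fbxo17, Zcchc12, Antxr1, Snora44 and Adam15, with differences of 0.0138 to 0.0350 and 24 genes within 0.1. That sum was mostly Cd79b. Its log2 ratio of cKO over WT was -0.21, and without Cd79b it was 0.98.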

How the data were processed

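Expected counts of 24984 genes were deposited by the authors for 2 WT and 2 cKO TTchem-seq libraries, grouped by sample title. Per the study's methods and the submitters' processing notes, reads were filtered with fastp 0.13.1 and aligned with STAR 2.7.9a to mouse GRCm38 (mm10). The methods take gene counts from the STAR output, whereas the notes name featureCounts 1.6.1, and which of them made the fractional counts is not settled. The counted features span whole genes, introns included. Of the values, 8.61% were fractional, and how fragments were split and whether counting used strand is not given in the sources used here. Fractional values could blur genes that share sequence. Among the members, 1 (Cd74) had a fractional count.

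Library preparation is described differently by the methods (labelled RNA, rRNA depletion) and the labels (oligo-dT capture), and the sources used here do not settle it. Expected counts were rounded for testing. CPM used the deposited library totals. The methods name DESeq2 and its thresholds. The test here was the Wald test of DESeq2 1.42.0 without covariates, at a Benjamini-Hochberg adjusted p under 0.05, a mean CPM of at least 1 and a fold of 1.2 or more. Members with lower means have no adjusted p. Some genes above that mean lack one in DESeq2 too, among them March1, Spib, Itgam and Siglech. DESeq2 could not call these, yet they count among the 11625 genes tested. The p-values rest on 2 libraries per genotype, and DESeq2 draws the spread of each gene towards a trend fitted over all genes. For sparse genes, p and SE therefore need not follow the gene's own spread between libraries. Poisson and Wilson 95% intervals and the floor of 3 counts cover counting error only, since no molecular identifiers were described. Alternatives were edgeR 4.0.16, limma 3.58.1 (voom), other size factors, filters and rounding, a replicate block and leaving out each library. Work was done in R 4.3.3 and Python 3.11.15 with scipy 1.17.1, numpy 2.4.6, pandas 2.3.3 and matplotlib 3.10.9, and the fit was tested on simulated data.

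The members and gene lists were chosen with earlier results of these data known. Named genes were all members, Tox4, Xist, the 2 most abundant and every called gene of each list, and the 5 genes nearest to each summed profile, beside those said to be chosen later. Some genes that this rule names are not reported here. Promoters came from RefSeq, where 4 of the 9 members matched by symbol.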

Additional observations from a re-analysis of the deposited data

How the results depend on the processing

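The counts of 1 member called higher (H2-DMa) and 1 called lower (Cd74) each fell to 0 in edgeR, in limma voom, with independent filtering off, in DESeq2 with a replicate block and in edgeR with a replicate block, and were 0 to 0 when each library was left out in turn. Calls over all genes fell under these settings as well, from 249 higher and 182 lower in the main fit. They were 50 and 12 in edgeR, 44 and 10 in limma voom, and 206 and 155 with independent filtering off. With the replicate block they were 121 and 72 in DESeq2 and 0 and 1 in edgeR. At an unadjusted p under 0.05, DESeq2, edgeR and limma voom each had 3 members, H2-Ab1, Cd74 and H2-DMa. Over the alternatives with all libraries, the adjusted p of Cd74 ranged from 0.0316 to 0.216 and that of H2-DMa from 0.0246 to 0.295. No member changed direction in any alternative that gave it a value. For single members under alternatives, 69 values with an adjusted p kept their side of the threshold, 18, all of Cd74 and H2-DMa, lost it, and 27, of Ciita, Cd79a and Ms4a1, had no adjusted p. The cause was not tested.

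The log2 ratio of the class II sum was -0.09. It was -0.62 as the median of the members, -0.69 without H2-DMa and -0.30 as CPM per kb, and -0.21 to 0.017 without 1 library, above 0 without WT replicate 2 or cKO replicate 1. That of the B cell sum was -0.21, but 0.98 without Cd79b and -0.66 (without cKO replicate 1) to 0.13 (without cKO replicate 2). With the replicate block they were -0.09 and -0.25. Same-numbered libraries did not deviate together (correlation -0.03), and the labels do not tie the numbers to a shared litter, batch or day, so the libraries were not treated as pairs, although Rn45s took 2.71% and 2.44% of fragments in the replicate 1 libraries and 4.30% and 4.05% in the replicate 2 libraries. The ratio of the 4 classical class II genes, -0.70, ran from -1.001 without cKO replicate 2 to -0.45 without cKO replicate 1, an alternative chosen after seeing the data. Ciita, Cd79a and Ms4a1 were too sparse for edgeR and voom, and depth limits any statement on them.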
